A study of Mus musculus with 6 samples.

Results

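The proteasome genes described here are the 48 genes of the deposited table whose symbols are Psm, a letter from a to g and a number, out of 55349 genes in all. They encode subunits of the proteasome, activators and an inhibitor, and chaperones that assemble it. Some proteasome genes have other symbols, such as Sem1, Adrm1 and Pomp, and are counted with the associated genes below. Of the 48, 46 were abundant enough to be tested, 5 immunoproteasome genes (Psmb8, Psmb9, Psmb10, Psme1 and Psme2) and 41 others. The other 2 genes, Psma8, an alpha subunit of male germ cells, and Psmb11, a subunit of thymic cortical epithelium, had at most 2 counts in any library and were not tested. RNA was sequenced in 6 libraries of subcutaneous tumours of B16F10, a pigmented melanoma line of C57BL/6 mice. Of these libraries, 3 carry the label shControl with a genotype given as WT (replicates 1, 4 and 5) and 3 the label shSQLE with a genotype given as SQLE knockdown (replicates 1, 2 and 5), and both groups are labelled as having had no treatment. The labels give neither the hairpin, its vector, the number of clones, the host strain, age or time of growth, nor whether the replicates are separate animals, so a p-value here reflects nothing but how far these libraries scatter, and that scatter may be technical. The only comparison is shSQLE against shControl, and it asks what lowering Sqle, squalene epoxidase of cholesterol synthesis, does to expression in the tumour.

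The proteasome degrades proteins tagged with ubiquitin. Its barrel-shaped core particle is built of rings of alpha and beta subunits, and only Psmb5, Psmb6 and Psmb7 of the constitutive beta subunits carry a protease site, with chymotrypsin-like, caspase-like and trypsin-like activity in turn. Interferon-gamma induces Psmb8, Psmb9 and Psmb10, which take the places of Psmb5, Psmb6 and Psmb7 in newly assembled cores and favour peptides that fit MHC class I molecules. It also induces Psme1 and Psme2, which form the ring-shaped activator PA28. Leukocytes hold much immunoproteasome without added interferon, whereas cultured B16 cells hold little until interferon is given.

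Promoter sequences were read for 40 of the 48 genes from the RefSeq table of build GRCm38.p6, in windows of 250 bases before to 50 bases after an annotated start. They are shown because Psmb9 shares its upstream region with Tap1, a peptide transporter subunit of the class I pathway, and because the interferon motifs are the ones usually discussed for the inducible genes. Psmb9 on the minus strand and Tap1 on the plus strand have their annotated starts at positions 34187330 and 34187556 of chromosome 17, and the 225 bases between these starts are chr17:34187331-34187555, printed on the strand of Tap1 with a GC box (GGGCGG or its complement) in capitals.
Psmb9 and Tap1: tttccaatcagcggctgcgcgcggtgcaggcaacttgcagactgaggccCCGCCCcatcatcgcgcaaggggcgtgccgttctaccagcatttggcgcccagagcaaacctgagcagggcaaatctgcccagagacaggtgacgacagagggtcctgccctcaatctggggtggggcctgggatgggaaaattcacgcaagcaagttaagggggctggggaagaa
Psmb8, downstream on the same chromosome, held 1 match to the gamma-activated site TTCNNNGAA, 97 bases before its start on the plus strand (chr17:34198088-34198117). Psme1 held 1 match to the interferon response motif GAAANNGAA on the reverse strand, from base 11 of the gene (chr14:55578494-55578523, plus strand). The capitals mark the match in each stretch of 30 bases.
Psmb8: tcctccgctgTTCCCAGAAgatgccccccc
Psme1: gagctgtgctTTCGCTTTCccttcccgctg

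These letters occur in many promoters. The interferon response motif was shortened by 1 base after matches to the longer form had been seen, so its letters are not a choice made blind to these promoters. The 40 proteasome genes had 43 windows, as some have more than 1 annotated start. Searched on both strands, GAAANNGAA was in 8.56% of all 32851 windows and in 7 of these 43. The 7 belong to Psme1, Psmb3, Psmb4, Psmc2, Psmd4, Psmd9 and Psmg4. TTCNNNGAA was in 8.3% of all windows and in 3 of the 43, those of Psmb8, Psmd2 and Psmg1. The windows of Psmb9, Psmb10 and Psme2 held neither motif. Through the antioxidant response element the factor encoded by Nfe2l1 drives constitutive proteasome genes. The letters TGACNNNGC of this element were in 12.4% of all windows and in 6 of the 43, those of 6 genes. Psmb5 and Psmb6 were among the 6 genes, and none of the 5 inducible genes was. Psmb7 was not among the 40 genes with a window. The matches of Psmb5 and Psmb6 are shown in capitals, at chr14:54618023-54618052 on the minus strand and chr11:70525338-70525367 on the plus strand.
Psmb5: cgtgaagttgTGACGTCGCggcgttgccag
Psmb6: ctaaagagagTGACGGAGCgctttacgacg
GGGCGG was in 35.7% of all windows and in 24 of the 43, those of 23 genes. Of the matches printed here, none overlapped a match to another of these motifs.

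The table holds expected counts, estimates of the reads per gene that need not be whole. Totals per library ranged from 16408622 to 19142185, and 13268 genes passed a filter on low counts. Levels below are CPM, counts scaled to library size with edgeR's TMM factors, unless called TPM. Where a value is given for each library, shControl is in the order of replicates 1, 4 and 5 and shSQLE in the order of 1, 2 and 5. Sqle had a mean of 148 CPM (SD 2.71, n = 3) with shControl and of 71.4 CPM (SD 5.24, n = 3) with shSQLE, and the groups did not overlap. Melanocyte markers averaged 8.85 to 9.18 log2 CPM in every library, as the label of the cells has it. After Benjamini-Hochberg adjustment 0 of 13268 genes (0%) passed 0.05 by edgeR's quasi-likelihood method, 6 of the 13247 to which DESeq2 gave an adjusted p (0.0453%) and 0 by limma voom. Sqle itself was called by DESeq2 but not by edgeR (edgeR adjusted p = 0.9996). A missing edgeR call is thus weak evidence of no change. Before adjustment, 413 genes (3.11%) had an edgeR p under 0.05, 1.62% lower and 1.49% higher in shSQLE.

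None of the 46 tested proteasome genes passed the edgeR test against that background of 0%, and 0 of the 46 had an unadjusted p under 0.05, where the share of all tested genes was 3.11%. DESeq2 and limma voom called 0 of the 46. All 46 had groups that overlapped, whereas 6.44% of all tested genes had groups that did not, 3.35% lower and 3.10% higher in shSQLE. The 5 immunoproteasome genes had negative log2 fold changes of shSQLE against shControl, from -1.33 to -0.42 with a median of -0.79. The other 41 genes lay between -0.13 and 0.42 with a median of 0.09, and 10 of them were below 0. The median over all tested genes was -0.02, and 52.6% were below 0. Without 1 library, shControl replicate 5, the values of the 5 inducible genes lay between -0.16 and 0.24, with 3 of the 5 below 0.

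**Figure D1:**
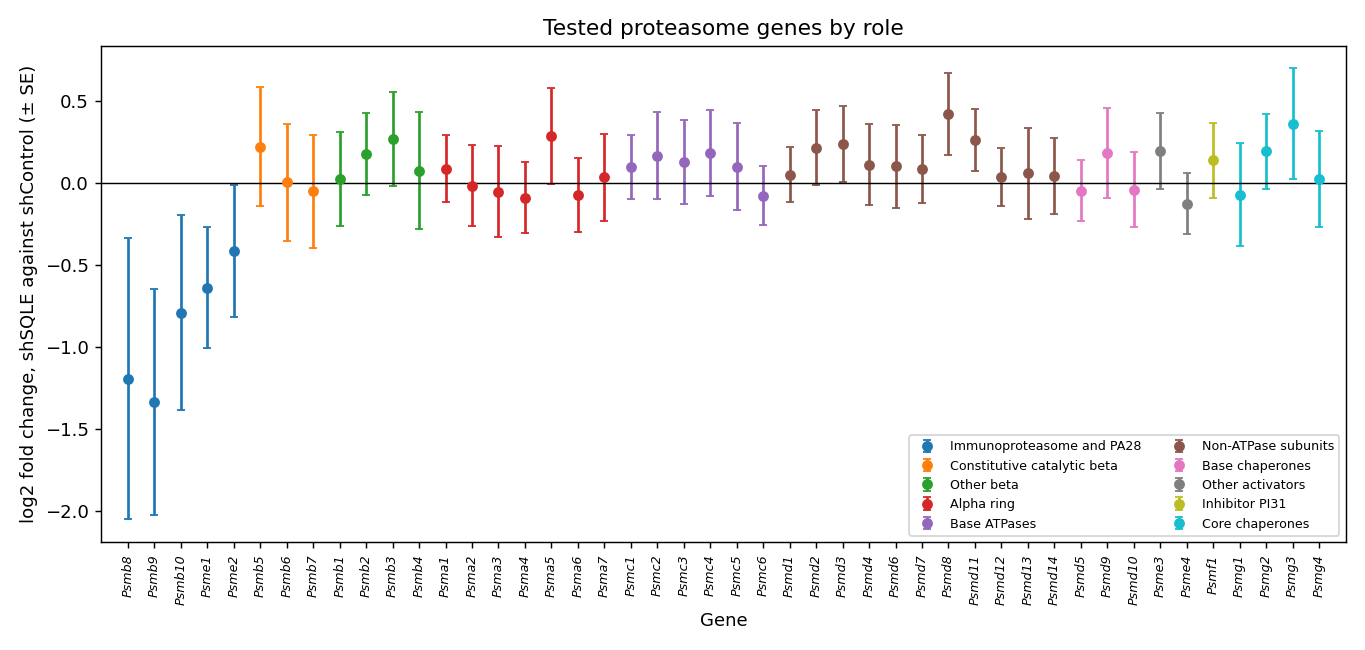
Log2 fold change of shSQLE against shControl from edgeR (y axis) with its SE for each of the 46 tested proteasome genes (x axis), coloured by role. The 5 immunoproteasome and PA28 genes lie between -1.33 and -0.42 with SEs of 0.37 to 0.86, and the other 41 lie between -0.13 and 0.42.

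Psmb8 (ENSMUSG00000024338) encodes the inducible chymotrypsin-like subunit. It held 19.0, 15.1 and 104 CPM in the shControl libraries, and 6.65, 19.7 and 34.1 CPM in the shSQLE libraries. A single shControl library stood far above the rest, and the other 2 lay inside the range of the shSQLE libraries. The group means were 46.1 ± 50.4 and 20.2 ± 13.8 CPM (SD, n = 3 each). The log2 fold change was -1.19 (SE 0.86, 95% confidence interval -3.21 to 0.82, edgeR adjusted p = 0.9996), and it was 0.24 without shControl replicate 5 and -0.77 without shSQLE replicate 1.

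Psmb9 (ENSMUSG00000096727), the inducible subunit that replaces the caspase-like Psmb6, followed the same order of libraries at its upper end. Its levels were 25.3, 24.7 and 119 CPM in the shControl libraries and 12.3, 17.6 and 37.1 CPM in the shSQLE libraries. The 2 lower shControl libraries lay between the second and the highest of shSQLE. The log2 fold change was -1.33 (SE 0.69, interval -2.93 to 0.27, edgeR adjusted p = 0.9996, unadjusted p = 0.0904), the most negative of the 46 genes, and it was -0.16 without shControl replicate 5. Some expected counts of Psmb9 were not whole, and reads may thus be shared with another gene.

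Psmb10 (ENSMUSG00000031897), the inducible trypsin-like subunit, was at 24.0, 49.7 and 134 CPM in the shControl libraries. In shSQLE replicates 1, 2 and 5 it was at 34.4, 26.4 and 59.2 CPM. The lowest level of all 6 libraries was also in a shControl tumour, replicate 1, so the shControl libraries enclosed the shSQLE ones. The log2 fold change was -0.79 (SE 0.59, interval -2.17 to 0.59, edgeR adjusted p = 0.9996), and 0.12 without shControl replicate 5.

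**Figure D2:**
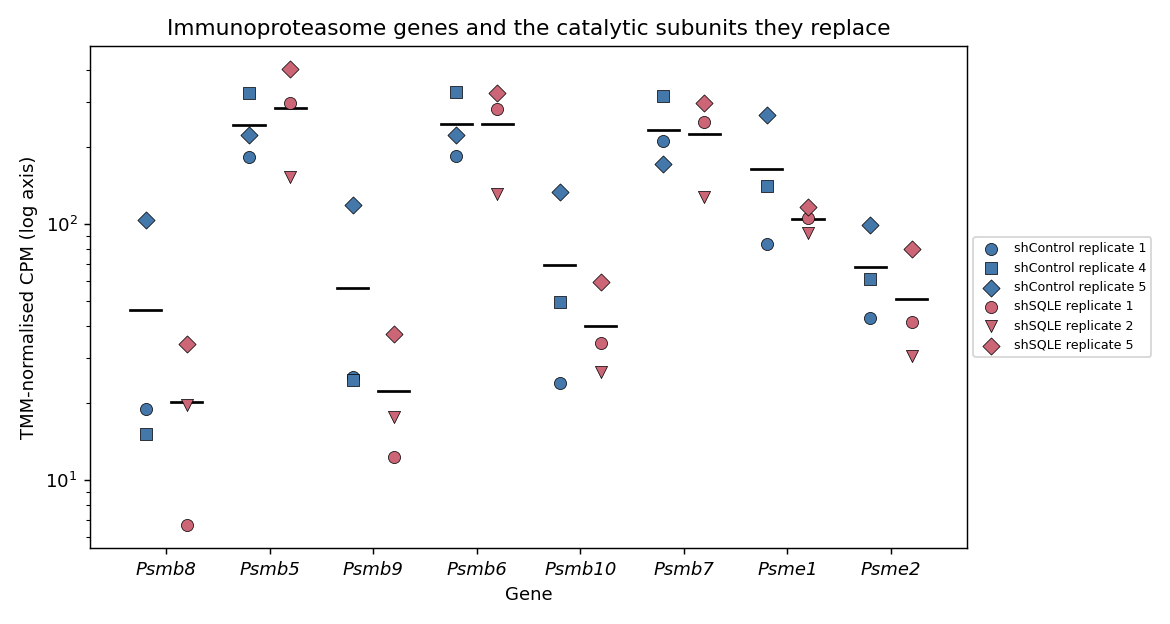
TMM-normalised CPM on a log axis (y) for the 3 inducible catalytic subunits, each beside the constitutive one it replaces, and for Psme1 and Psme2 (x), with 1 point per library and a bar at the group mean. In shControl replicate 5 Psmb8, Psmb9 and Psmb10 reach 104, 119 and 134 CPM, while Psmb5, Psmb6 and Psmb7 in that library lie inside the range of the other libraries.

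The PA28 genes varied less, with 3.18-fold and 3.25-fold between the highest and the lowest of the 6 libraries for Psme1 and Psme2, against 15.7-fold for Psmb8, 9.64-fold for Psmb9 and 5.58-fold for Psmb10. Psme1 (ENSMUSG00000022216), PA28 alpha, was at 83.7, 141 and 266 CPM in the shControl libraries and at 106, 92.6 and 117 CPM in the shSQLE libraries. Here too shControl held both the highest and the lowest library. Its log2 fold change was -0.64 (SE 0.37, interval -1.48 to 0.20, edgeR adjusted p = 0.9996), and -0.10 without shControl replicate 5. Psme2 (ENSMUSG00000079197), PA28 beta, was at 42.8, 60.8 and 99.6 CPM in the shControl libraries and at 41.6, 30.7 and 80.1 CPM in the shSQLE libraries. The replicate numbered 5 was the highest of its group in both groups, and the log2 fold change was -0.42 (SE 0.40, interval -1.33 to 0.50, edgeR adjusted p = 0.9996). Leaving out single libraries moved it between -0.91, without shSQLE replicate 5, and -0.03, without shControl replicate 5. Psme2 has a similar copy, Psme2b, which held 19 to 57 counts per library and could share reads with it. The expected counts of both genes were whole in every library.

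All 5 immunoproteasome genes were highest in shControl replicate 5, as were 13.0% of all tested genes. Psmb8 was 3.05 times, Psmb9 3.20 times and Psmb10 2.26 times the next highest library there, which was shSQLE replicate 5 for all 3 genes. A margin of at least 2-fold for that library was found for 1.28% of all tested genes. The margin was 1.88 times for Psme1, over shControl replicate 4, and 1.24 times for Psme2, over shSQLE replicate 5. The mean of the 2 remaining shControl libraries was close to that of shSQLE for each gene: 17.1 against 20.2 CPM for Psmb8, 25.0 against 22.4 for Psmb9, 36.9 against 40.0 for Psmb10, 113 against 105 for Psme1 and 51.8 against 50.8 for Psme2.

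The constitutive catalytic subunits had another order of libraries. Psmb5 was at 183, 326 and 224 CPM in the shControl libraries and at 297, 152 and 405 CPM in the shSQLE libraries. Psmb6 was at 185, 330.1 and 224 CPM in shControl and at 283, 131 and 326 CPM in shSQLE. Psmb7, whose expected counts were not all whole, was at 212, 317 and 173 CPM and at 251, 128 and 298 CPM. All 3 were lowest in shSQLE replicate 2, and the shSQLE libraries spread wider than the difference between the groups. Their log2 fold changes were 0.22 (SE 0.36), 0.0026 (SE 0.36) and -0.05 (SE 0.34), with 95% confidence intervals of -0.60 to 1.04, -0.81 to 0.81 and -0.83 to 0.73.

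Set against their constitutive counterparts per length of transcript, the inducible subunits were the minor form in every library, with the exception of Psmb10 in shControl replicate 5. TPM, counts divided by effective length and scaled to the same total in each library, were used for this. Psmb8 made up 8.27%, 3.87% and 28.8% of the sum of Psmb8 and Psmb5 in the shControl libraries, and 1.91%, 10.1% and 6.82% in the shSQLE libraries. Psmb9 made up 6.88%, 3.86% and 22.2% of its pair with Psmb6 in shControl and 2.29%, 6.74% and 5.78% in shSQLE. Psmb10 had the largest share, with 13.7%, 18.0% and 52.2% of its pair with Psmb7 in shControl and 16.1%, 22.5% and 21.8% in shSQLE. Outside shControl replicate 5 the 2 groups covered overlapping ranges in each pair. The log2 ratio of the pair differed by -1.06 between shSQLE and shControl for Psmb8 over Psmb5 (two-sided exact permutation p = 0.5), by -1.01 for Psmb9 over Psmb6 (p = 0.4, same exact permutation test) and by -0.43 for Psmb10 over Psmb7 (p = 0.9, same exact permutation test), where 3 libraries against 3 cannot give less than 0.1. Adjusted over these 3 pairs, the exact permutation p-values were 0.75, 0.75 and 0.9, and without shControl replicate 5 the differences were -0.15, -0.21 and 0.41. Without shSQLE replicate 1 they were -0.33, -0.51 and -0.24, and leaving out other single libraries took them to as low as -1.81, -1.63 and -0.97. These shares are of transcripts and do not give the makeup of assembled particles.

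**Figure D3:**
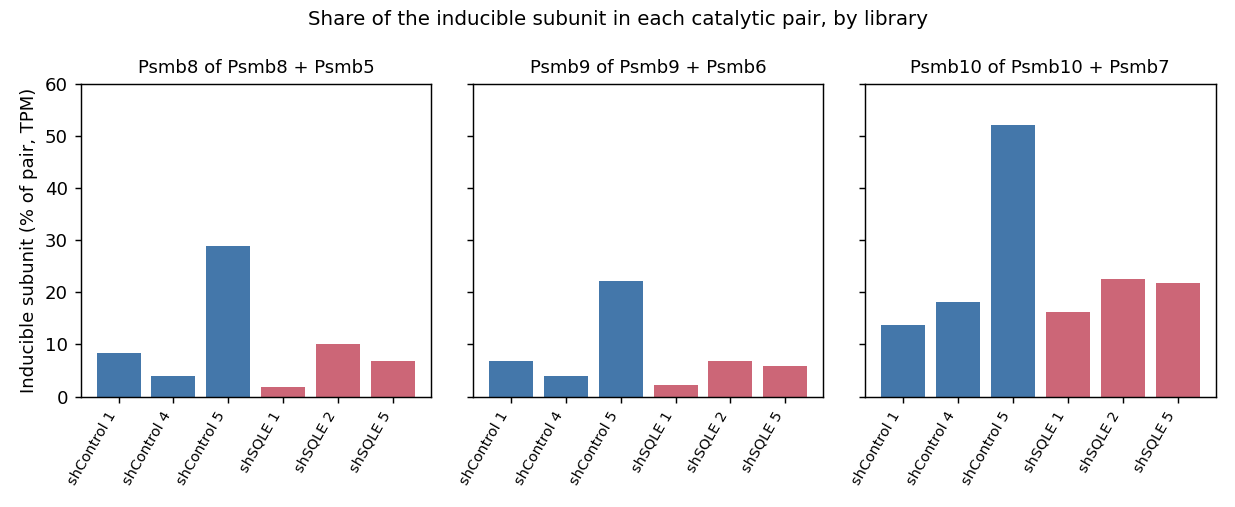
Share of the inducible subunit in the TPM of each catalytic pair (y axis, percent) in each of the 6 libraries (x axis), with shControl in blue and shSQLE in red and 1 bar per library. Shares in shControl replicate 5 are 28.8%, 22.2% and 52.2%, and shares in the other 5 libraries reach at most 10.1%, 6.88% and 22.5%.

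By TPM over all 6 libraries, the core subunit Psmb3 was the most abundant tested member at 603 TPM, and Psme4, which encodes the nuclear activator PA200, the least at 13.0 TPM. Psmb3 was at 198, 335 and 317 CPM in the shControl libraries and at 353, 242 and 428 CPM in the shSQLE libraries, with groups that overlapped. Psme4 was nearly level, at 84.4, 67.9 and 62.3 CPM in shControl and at 68.4, 63.9 and 64.2 CPM in shSQLE. The other constitutive beta and alpha subunits ran from 58.0 TPM for Psma2 to 451 for Psmb6. Among the inducible genes, Psme1 was at 164 TPM, Psme2 at 87.7, Psmb10 at 86.2, Psmb8 at 46.2 and Psmb9 at 39.9 TPM, and these means pool libraries that differ. In shControl replicate 5 Psmb8 and Psmb9 were at 145 and 121 TPM, above Psma2 at 54.0 and Psma5 at 82.2 TPM, and in each of the other 5 libraries both lay below Psma2. The shControl mean of Psmb8, 64.8 TPM, was above that of Psma2. The chaperones Psmd5, Psmd9 and Psmd10, which build the base of the regulatory particle, were between 17.1 and 40.4 TPM.

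By role, the medians of the constitutive genes lay close to 0, and none passed the edgeR test. The 7 tested alpha ring genes had a median log2 fold change of -0.02, with 3 above and 4 below 0, and the 4 structural beta genes a median of 0.13 with all 4 above 0. The 6 ATPases of the base, which unfold substrates, had a median of 0.11 with 5 above 0. All 11 non-ATPase subunits of the regulatory particle were above 0 with a median of 0.10, from 0.04 to 0.42. Some of these subunits bind or strip ubiquitin chains. The 4 chaperones of the core, Psmg1 to Psmg4, had a median of 0.11 with 3 above 0, and the 3 base chaperones a median of -0.04 with 1 above 0. Psmf1, the inhibitor PI31, was at 0.14 (SE 0.23), the PA28 gamma gene Psme3, whose ring acts in the nucleus, at 0.20 (SE 0.23), and Psme4 at -0.13 (SE 0.18).

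The constitutive member with the smallest p was Psmd8, a lid subunit. It was at 423, 469.9 and 653 CPM in the shControl libraries and at 568, 715 and 786 CPM in the shSQLE libraries. Its groups overlapped only through shControl replicate 5 and shSQLE replicate 1, and its log2 fold change was 0.42 (SE 0.25, edgeR unadjusted p = 0.128, adjusted p = 0.9996). Psmd11, another lid subunit, held 103, 108 and 132 CPM in shControl and 125, 149 and 137 CPM in shSQLE, a log2 fold change of 0.26 (SE 0.19). Psmg3, an assembly chaperone of the core, held 28.2, 47.7 and 33.9 CPM in shControl and 51.0, 26.0 and 63.8 CPM in shSQLE, at 0.36 (SE 0.34). Psmd3, also of the lid, held 239, 372 and 365 CPM and 389, 364 and 398 CPM, at 0.24 (SE 0.23), its only low library being shControl replicate 1. The alpha subunit Psma5 held 73.4, 122 and 77.4 CPM and 105, 77.5 and 149.6 CPM, at 0.28 (SE 0.29). Leaving out single libraries moved these log2 fold changes widely, between 0.30 and 0.63 for Psmd8, 0.19 and 0.38 for Psmd11, 0.07 and 0.65 for Psmg3, 0.06 and 0.35 for Psmd3, and 0.0072 and 0.56 for Psma5. The lowest values of Psmg3 and Psma5 came without shSQLE replicate 5, and that of Psmd3 without shControl replicate 1.

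The mean level of the core subunits spread wider within each group than between the groups. The mean of the 14 constitutive core genes (Psma1 to Psma7 and Psmb1 to Psmb7) was 7.26, 7.91 and 7.45 log2 CPM in the shControl libraries and 7.72, 7.10 and 7.92 log2 CPM in the shSQLE libraries, with group means of 7.54 ± 0.34 and 7.58 ± 0.43 (SD, n = 3 each). Of the 41 tested genes outside the immunoproteasome 16 were highest in shSQLE replicate 5, where the share of all tested genes was 16.3%. Of the 14 core genes 11 were lowest in shSQLE replicate 2, as were 3 of the 4 core chaperones. Across all tested genes 20.6% were lowest in that library, and 17.9% when scaled by library size alone, where the counts of 11 and 3 were the same. All 18 core and core chaperone genes were higher in shSQLE replicate 5 than in shSQLE replicate 2, by a median of 0.86 log2 units, up to 1.41 for Psmb5. The 11 non-ATPase subunits differed between these 2 libraries by a median of 0.17 log2 units, and the 6 ATPases by 0.53.

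Transcript length moved with this pattern. The median effective length was 811 bases for the 18 core and core chaperone genes, 1259.8 for the ATPases, 1488 for the non-ATPase subunits and 2155 for all tested genes. Of the 2202 tested genes under 1000 bases, 42.6% were lowest in shSQLE replicate 2, and their median difference between shSQLE replicates 5 and 2 was 0.53 log2 units, against -0.02 for all tested genes. The part of length or RNA quality in the core pattern was not tested.

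**Figure D4:**
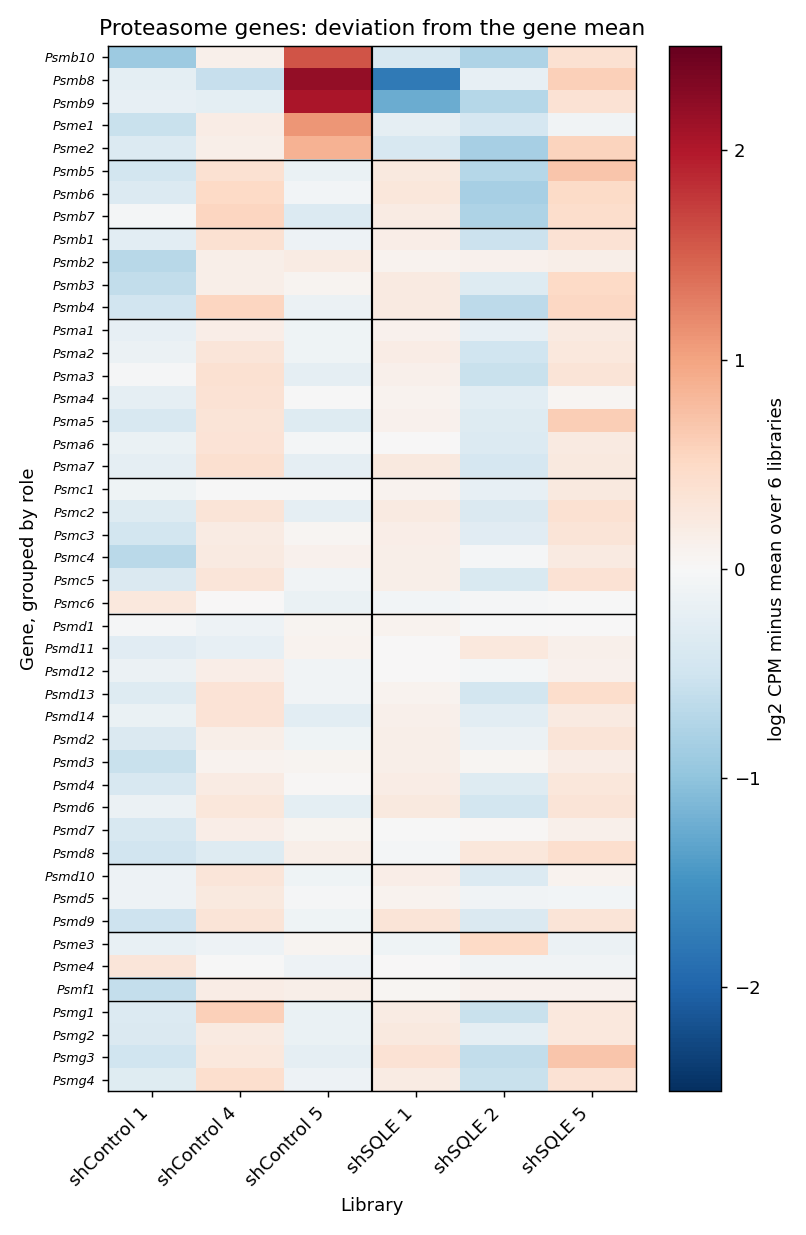
Log2 CPM of each tested proteasome gene (rows, grouped by role) minus its mean over the 6 libraries (columns), with red above and blue below the gene's mean. The top block, the immunoproteasome genes, is reddest in shControl replicate 5, and the core blocks are mostly blue in shSQLE replicate 2 and mostly red in shControl replicate 4 and shSQLE replicate 5.

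Proteins that work with the proteasome showed no call either. Of 20 associated genes (among them the assembly factor Pomp, ubiquitin receptors, deubiquitinases, ubiquitin genes and Nfe2l1 with its processing enzymes) 0 passed the edgeR test, 11 were above and 9 below 0, and the median was 0.04. Nfe2l1, whose product raises proteasome genes when proteolysis falls short, was at 161, 116 and 134 CPM in the shControl libraries and at 127, 131 and 94.4 CPM in the shSQLE libraries (log2 fold change -0.22, SE 0.21). The deubiquitinase gene Uchl5 was at -0.37 (SE 0.25) and the ubiquitin receptor Adrm1 at 0.36 (SE 0.26). With single libraries left out they ran from -0.58 to -0.20 and from 0.13 to 0.52, and Nfe2l1 from -0.32 to -0.08.

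The regulators of the inducible genes were, like them, highest in shControl replicate 5 in most cases. Of 18 regulators (among them interferon receptors, Irf genes, Nlrc5, Ciita, Socs1 and NF-kappaB genes) 10 were highest in that library, 12 were below 0 and the median log2 fold change was -0.20. Irf1, which binds interferon response motifs of immunoproteasome genes, was at 21.6, 21.7 and 86.6 CPM in the shControl libraries and at 14.2, 24.2 and 37.0 CPM in the shSQLE libraries. Nlrc5, the class I transactivator, was at 6.75, 2.77 and 20.0 CPM and at 2.59, 7.97 and 7.45 CPM. Their log2 fold changes were -0.79 (SE 0.60) and -0.71 (SE 0.69), and the groups of both overlapped. Some expected counts of Irf1 were not whole. Without shControl replicate 5 the values were 0.21 and 0.33.

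Irf9, Irf8 and Nfkb1 had the smallest p of the regulators, and none passed the edgeR test. Irf9, part of the type I interferon factor, was at 13.3, 21.5 and 42.0 CPM in shControl and at 9.13, 10.9 and 11.3 CPM in shSQLE, with groups that did not overlap (log2 fold change -1.30, SE 0.38). Irf8, an interferon regulatory factor of myeloid cells, did not overlap either, at 7.46, 6.61 and 25.7 CPM against 5.07, 5.58 and 6.18 CPM (-1.24, SE 0.50). Without shControl replicate 5 Irf9 was at -0.74 and Irf8 at -0.33. Among all tested genes 3.35% were lower in shSQLE without overlap, and the 5 immunoproteasome genes were not among them. The NF-kappaB subunit gene Nfkb1 was at 0.50 (SE 0.24), and at 0.28 without shSQLE replicate 2.

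Tap1, which starts next to Psmb9, was at 23.3, 22.2 and 121 CPM in shControl. The shSQLE values of 9.97, 25.4 and 25.3 CPM gave a log2 fold change of -1.46 (SE 0.71, edgeR adjusted p = 0.9996), which was -0.17 without shControl replicate 5, and some of its expected counts were not whole. Its highest and lowest libraries, shControl replicate 5 and shSQLE replicate 1, were those of Psmb9, and also of Psmb8, Irf1, Nlrc5, Irf9 and Irf8. Of the 13 peptide loading and trimming genes 0 passed, 10 were below 0, 7 were highest in shControl replicate 5 and the median was -0.26. The trimming aminopeptidase Erap1 was at -0.89 (SE 0.51), with expected counts that were not all whole, and at -0.06 without shControl replicate 5. Thop1, a peptidase that destroys proteasome products, was at 0.35 (SE 0.22), and at 0.18 without shControl replicate 1.

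Markers of leukocytes moved with the inducible genes in part. A tumour library mixes RNA of melanoma and host cells, and fewer cells of a type cannot be told apart from less RNA per cell. The mean of the 5 immunoproteasome genes was 5.07, 5.45 and 7.07 log2 CPM in the shControl libraries and 4.72, 4.93 and 5.88 in the shSQLE libraries. The 8 pan-leukocyte markers averaged 3.13, 2.04 and 4.01 log2 CPM in shControl and 1.49, 2.71 and 3.42 in shSQLE, and 18 macrophage markers 3.14, 2.27 and 3.91 and 1.53, 2.67 and 3.73. Both lists and the immunoproteasome genes were highest in shControl replicate 5, second in shSQLE replicate 5 and lowest in shSQLE replicate 1. They differed elsewhere: in shSQLE replicate 5 and shControl replicate 5 the macrophage means were 3.73 and 3.91, and the immunoproteasome means 5.88 and 7.07.

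Lymphocyte transcripts were sparse. Of 17 T and NK cell markers 14 were too low to be tested, Cd8a, Prf1 and Ifng among them, none was at 0 in all libraries, and the 3 tested ones averaged 1.59 log2 CPM in shControl replicate 5 and between -0.73 and 0.80 in the other libraries. The 4 tested B cell markers of 7 averaged 2.32 log2 CPM in shControl replicate 5 and at most 1.59 elsewhere, and the 4 tested dendritic cell markers of 9 averaged 1.33 there and at most 0.90 elsewhere. Fibroblast markers (10 tested) ranged from 2.39 to 4.06 log2 CPM in shControl and from 1.55 to 3.78 in shSQLE, endothelial markers (11) from 2.23 to 3.79 and from 2.17 to 2.72, adipocyte markers (4) from -0.22 to 5.30 and from -0.86 to 1.86, and skeletal muscle markers (10) from -0.41 to 3.42 and from 0.86 to 6.45. The fibroblast and adipocyte means peaked in shControl replicate 5, at 4.06 and 5.30. Their minimum, 1.55 and -0.86, fell in shSQLE replicate 1, so these extremes were not particular to leukocyte markers. Their second library was shControl replicate 1, at 3.91 and 3.45, rather than shSQLE replicate 5. Endothelial markers peaked in shControl replicate 1 and muscle markers in shSQLE replicate 5. Each of the 4 tested adipocyte markers was highest in shControl replicate 5. The part of leukocytes or other host cells in the immunoproteasome values was not tested.

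**Figure D5:**
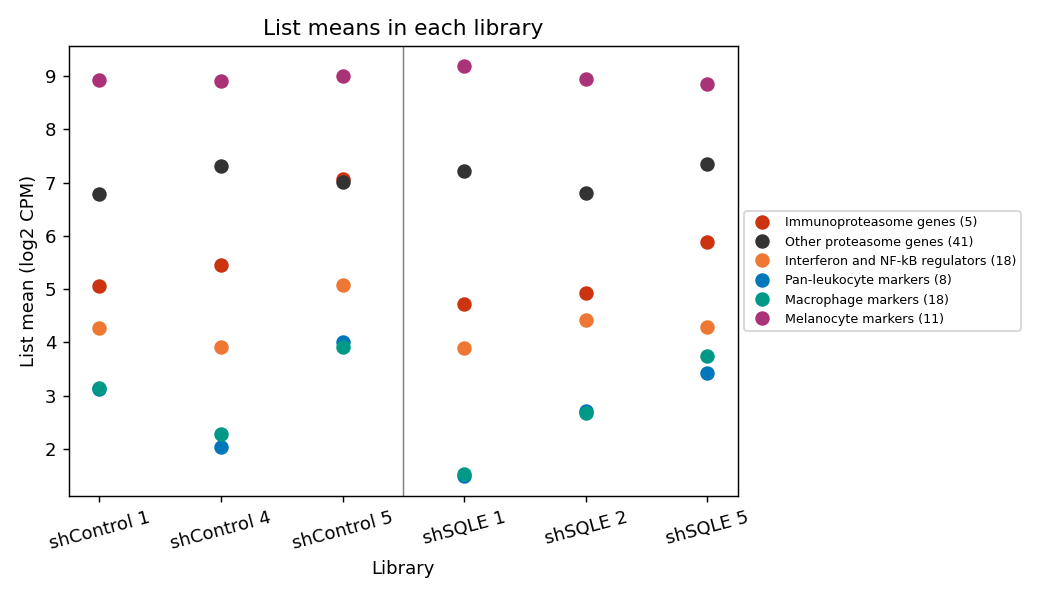
Mean log2 CPM (y axis) of 6 gene lists in each library (x axis), with the number of tested genes in the legend, shControl left and shSQLE right of the grey line, and 1 point per list and library. The immunoproteasome mean reaches 7.07 in shControl replicate 5 and lies between 4.72 and 5.88 elsewhere, while the 41 other proteasome genes stay between 6.79 and 7.35.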

How the data were processed

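RNA from 6 subcutaneous tumour libraries was sequenced on a DNBSEQ-T7 in paired-end mode, per the labels' protocols. The authors deposited 1 table of expected counts, with a length and effective length in bases for each gene. The tools listed in the submitters' processing notes are RSEM, STAR, DESeq2 and FastQC, and the build is GRCm39. The sources used here give no versions, annotation or strand setting. Paralogs, pseudogenes and overlapping genes may therefore share reads. Groups and replicate numbers came from the titles. No pair of libraries agreed within sampling noise.

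Expected counts were rounded, and edgeR's filterByExpr with a minimum count of 10 and a minimum total of 15 kept 13268 of 55349 genes. The fit was edgeR 4.0.16 in R 4.3.3 (TMM, glmQLFit with robust=TRUE, glmQLFTest) with group as the only term, Benjamini-Hochberg adjustment over all tested genes and a threshold of 0.05. The SE is the log2 fold change divided by the square root of F. List means use log2 CPM with a prior count of 2. TPM used the effective lengths. Pair ratios had an exact two-sided permutation test (scipy 1.17.1). The fit was tested on simulated counts. Sequences and their coordinates are from RefSeq tables of build GRCm38.p6, not the build of the counts. Precision is limited by counting error, which depends on depth, and separately by having 3 libraries per group to estimate the spread.

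Members and lists were chosen with earlier results of these data known. Named genes are all members, the genes of each associated list with the 3 smallest p, and Irf1, Nlrc5, Tap1, Nfe2l1 and Sqle; some genes that this rule names are not reported here. Alternatives were DESeq2 size factors, library size alone, no filter, at least 1 CPM in 3 libraries, DESeq2 1.42.0, limma 3.58.1 voom, a prior count of 0.5, annotated length, a replicate block, and leaving out single libraries in turn. Each gene has the same length in all libraries, so annotated length could not change the pair ratio differences. Those values are still counted among the alternatives below.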

Additional observations from a re-analysis of the deposited data

How the results depend on the processing

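Of 460 values under the alternatives, 19 log2 values had the other sign, 4 counts of genes changed by over 1.5 times, 1 list mean moved beyond the spread between libraries and 3 log2 values went past the threshold (Sqle with DESeq2, Psmb8 and Tap1 with the replicate block). A further 89 log2 values kept their sign and side of the threshold but moved by over 1.5 times, 65 of them with a single library left out and 17 with the replicate block. Leaving out single libraries, the log2 fold changes ranged from -1.80 to 0.24 for Psmb8, -1.91 to -0.16 for Psmb9, -1.20 to 0.12 for Psmb10, -0.95 to -0.10 for Psme1 and -0.91 to -0.03 for Psme2. In each case the highest value came without shControl replicate 5. The same ranges were -0.13 to 0.52 for Psmb5, -0.25 to 0.31 for Psmb6, -0.30 to 0.23 for Psmb7, -0.22 to 0.0096 for Psme4, -1.17 to 0.21 for Irf1 and -1.15 to 0.33 for Nlrc5. The log2 ratio differences ran from -1.81 to -0.15 for Psmb8 over Psmb5, -1.63 to -0.21 for Psmb9 over Psmb6 and -0.97 to 0.41 for Psmb10 over Psmb7. The immunoproteasome mean difference ran from -1.08 to -0.08 and that of the other 41 genes from -0.032 to 0.25 log2 CPM. Psmb6, near 0, was at -0.061 with library size alone, -0.00016 with at least 1 CPM in 3 libraries and -0.056 with limma voom. The count of all genes past the threshold, 0 in the fit as described, was 6 with DESeq2, 0 to 31 with single libraries left out (31 without shSQLE replicate 1) and 41 with the replicate block. No proteasome gene passed under any alternative other than the replicate block.

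Replicate numbers 1 and 5 occur in both groups, and the labels do not say that a number marks a shared animal or batch. The deviations of same-numbered libraries from their group means had a correlation across genes of -0.13 for number 1 and 0.07 for number 5. With the number as a replicate block, 1 immunoproteasome gene passed, Psmb8 at -1.56 (edgeR adjusted p = 0.0162). That fit rests on the 2 shared numbers and has little left to estimate the spread. Under it Tap1 also passed (-1.76, edgeR adjusted p = 0.0162) and Psmb7 was at 0.52. Over the 2 shared numbers the mean difference of the 41 other proteasome genes was 0.38 log2 CPM, against 0.09 over all libraries, and the log2 ratio differences were -2.34, -1.94 and -0.85 for the pairs of Psmb8, Psmb9 and Psmb10, against -1.06, -1.01 and -0.43. With 3 libraries per group the 95% intervals of the inducible genes were wide, from -3.21 to 0.82 for Psmb8.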
